A study of Mus musculus with 39 samples.

Results

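Tumours treated for 5 days with EPAT, which blocks the receptors EP2 and EP4 of prostaglandin E2, were compared with tumours treated for 5 days with vehicle. The libraries were taken by their labels for treatment and time point, which gave 5 EPAT and 5 vehicle libraries, 10 of the 39 in the series. All came from C57BL/6 mice injected with cells of a Braf-mutated melanoma, with treatment starting on day 7 after injection. EPAT was dosed bidaily at 30 mg per kg (200 µl at 3 mg/mL), and vehicle was the same volume of DMSO-PEG400 and water mixed 60:40. Neither group received the anti-PD-1 antibody used elsewhere in the series. The labels name neither the tumour cell line nor the compounds called EPAT. They give day 5 as the time point, while the extraction text places tumour isolation on day 4, which matches neither treatment time. RNA of whole tumours was counted from the 3′ ends of messenger RNAs (Lexogen QuantSeq), so a read stands for the end of a transcript. Levels are given in CPM, counts as a share of the library scaled by the trimmed mean of M values (TMM).

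Prostaglandin E2 is a lipid mediator made from arachidonic acid by the cyclooxygenases, encoded by Ptgs1 and Ptgs2, and by prostaglandin E synthases. Its receptors EP2 and EP4, encoded by Ptger2 and Ptger4, couple to the stimulatory G protein and raise cyclic AMP, which activates protein kinase A and the transcription factor CREB. In tumours the lipid is known for acting on T cells, natural killer cells, dendritic cells and myeloid cells. Immediate early genes are transcribed within minutes of a signal without new protein synthesis. Some answer to cyclic AMP through CREB, and many answer to growth factors through the MAP kinase pathway and serum response factor.

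The libraries held 8895991 to 14943145 counts under EPAT and 10012064 to 15558113 counts under vehicle. The labels do not say that each library came from a separate mouse, so p-values measure the spread between these libraries. The first number in a library's title was 5 for EPAT replicate 1, as in most EPAT libraries of day 2, 6 for EPAT replicates 2 to 5, as in 1 EPAT library of day 2, and 1 for every vehicle library. Whatever that number stands for cannot be told apart from the treatment, and many results that moved without EPAT replicate 1 are given with and without it. EPAT replicate 3 stood apart with the lowest total, 12.9% of its counts in Gm42418, a gene inside a ribosomal RNA repeat (2.39% to 4.51% in the other EPAT libraries, 1.9% to 10.73% under vehicle), and the lowest macrophage and T cell levels of the 10. Vehicle replicate 3 had the highest macrophage, neutrophil and natural killer cell levels of the 10. Lung epithelial transcripts (Sftpc, Sftpa1 and Scgb1a1) were present in EPAT replicates 3 and 4 and in vehicle replicates 1, 4 and 5. The melanoma label was checked against pigment cell genes: Tyr, Mlana and Tyrp1, which encode melanosome proteins, had 0 reads in all 10 libraries, which allows 0.193 to 0.337 CPM by library, for counting error only. Pmel had 15 reads in the EPAT libraries together and 13 in the vehicle libraries, and Sox10 had 6 and 8. Mitf, the master regulator of the lineage, was present at 34.2 to 77 CPM under EPAT and 32.3 to 51.8 CPM under vehicle. Mitf was thus measured without the pigment genes in both groups.

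After 5 days the EPAT tumours differed from vehicle tumours most clearly in 3 genes. The immediate early genes Egr1 and Egr2 were higher under EPAT, with log2 fold changes of 1.31 and 1.27, and the clock repressor gene Cry1 was lower, at -0.69, each without overlap between the groups. None passed the test. edgeR's quasi-likelihood test, fitted on all 39 libraries with Benjamini-Hochberg adjustment, called 0 of 15070 genes (0.0%) at an adjusted p under 0.05, and the smallest adjusted p was 0.118. At an unadjusted p under 0.05 there were 256 genes (1.7% of those tested), 100 higher (0.664%) and 156 lower (1.04%). This share lies below the one that the threshold itself lets through where no gene differs. The groups did not overlap in 71 genes (0.471%), of which 32 (0.212%) had all EPAT libraries above all vehicle libraries and 39 (0.259%) had all of them below. Among so many genes some part the groups by chance. Lack of overlap is therefore a description, here and below, and was not tested. By fold change alone 47.9% of genes were higher under EPAT, and the median over all genes was -0.01 on the log2 scale. A fit of these 10 libraries alone called 1 gene, Egr1 (adjusted p = 0.0309 by edgeR), and DESeq2 and limma-voom with quality weights each called Egr1, Egr2 and Cry1. When EPAT replicate 1 was left out no gene was called by edgeR, and 198 were at an unadjusted p under 0.05.

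**Figure D1:**
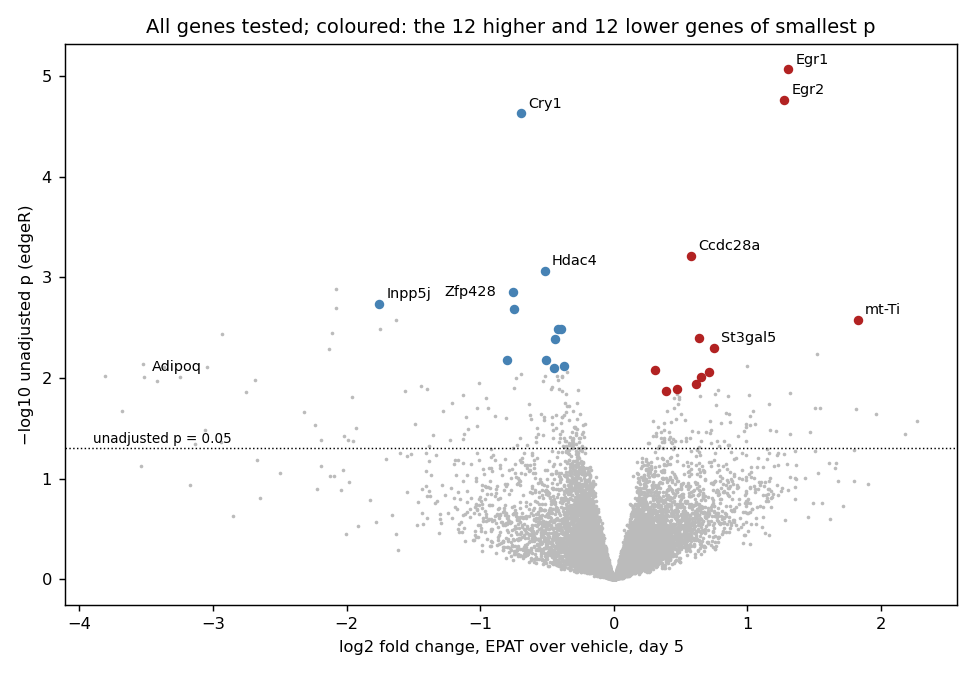
Each point is 1 of the 15070 genes tested, with the log2 fold change of EPAT over vehicle on the x axis and −log10 of the unadjusted edgeR p on the y axis. The coloured points are the 12 higher and 12 lower genes of smallest p that meet the naming rule, and Egr1, Egr2 and Cry1 lie highest.

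Egr1 and Egr2 encode zinc finger transcription factors of the early growth response family, which link growth factor and antigen receptor signals to later gene programmes. Egr1 had 227, 291, 292, 212 and 186 CPM in EPAT replicates 1 to 5, against 75.9, 102, 120, 92.9 and 98.1 CPM in vehicle replicates 1 to 5. The lowest EPAT library lay above the highest vehicle library, and the means were 242 ± 47.8 CPM under EPAT and 97.7 ± 15.8 CPM under vehicle (SD, n = 5 each). Its log2 fold change was 1.31 ± 0.25 (SE) with an adjusted p of 0.118 by edgeR, 1.33 without EPAT replicate 1, and 1.22 to 1.39 over the fits that left out each library in turn. Egr2 had 15.9, 11.1, 15.2, 16.3 and 11.9 CPM under EPAT, against 3.6, 4.65, 6.32, 7.39 and 7.08 CPM under vehicle. Again every EPAT library lay above every vehicle library. The log2 fold change of Egr2 was 1.27 ± 0.26 (adjusted p = 0.118 by edgeR), with a range of 1.13 to 1.38 when libraries were left out. As the groups did not overlap, any split of the libraries gives higher values under EPAT. The split by lung transcripts is therefore given for its sizes only. The difference of mean log2 CPM with and without those transcripts was 1.49 and 1.065 for Egr1, and 1.43 and 1.22 for Egr2. The other family members overlapped between the groups. Egr3 was at 1.1 ± 0.51 CPM under EPAT and 0.866 ± 0.839 CPM under vehicle, and Egr4 was at 11.6 ± 2.71 CPM and 9.44 ± 5.42 CPM (SD, n = 5 each).

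Serum response factor binds a sequence called the CArG box, and Egr2 carries one near its starts. Egr2 lies on chromosome 10 (GRCm38, 67535475 to 67542188, plus strand), and RefSeq (GRCm38.p6) lists 5 starts for it, of which 4 have a CArG box within the 250 bases before them. The window chr10:67537619-67537868 (plus strand) is shown because Egr2 ranked next to Egr1 among all genes by p and this is the window whose box lies nearest its start, in capitals 72 to 63 bases before it.
Egr2: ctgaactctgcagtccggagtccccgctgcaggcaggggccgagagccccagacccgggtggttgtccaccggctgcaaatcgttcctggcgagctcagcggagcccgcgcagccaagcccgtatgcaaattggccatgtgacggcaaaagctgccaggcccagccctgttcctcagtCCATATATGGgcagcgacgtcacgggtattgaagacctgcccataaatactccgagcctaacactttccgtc
Searched on both strands, a CArG box was present in 1.47% of the 32851 promoter windows in the RefSeq table. Of the 24 genes of smallest p shown in the plot of all genes, 18 had a window and 1, Egr2, held the box in at least 1 window. That is a count of genes, some with several windows, and is not comparable with the share of single windows. Genes without a window were not searched, so nothing is said of their promoters.

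**Figure D2:**
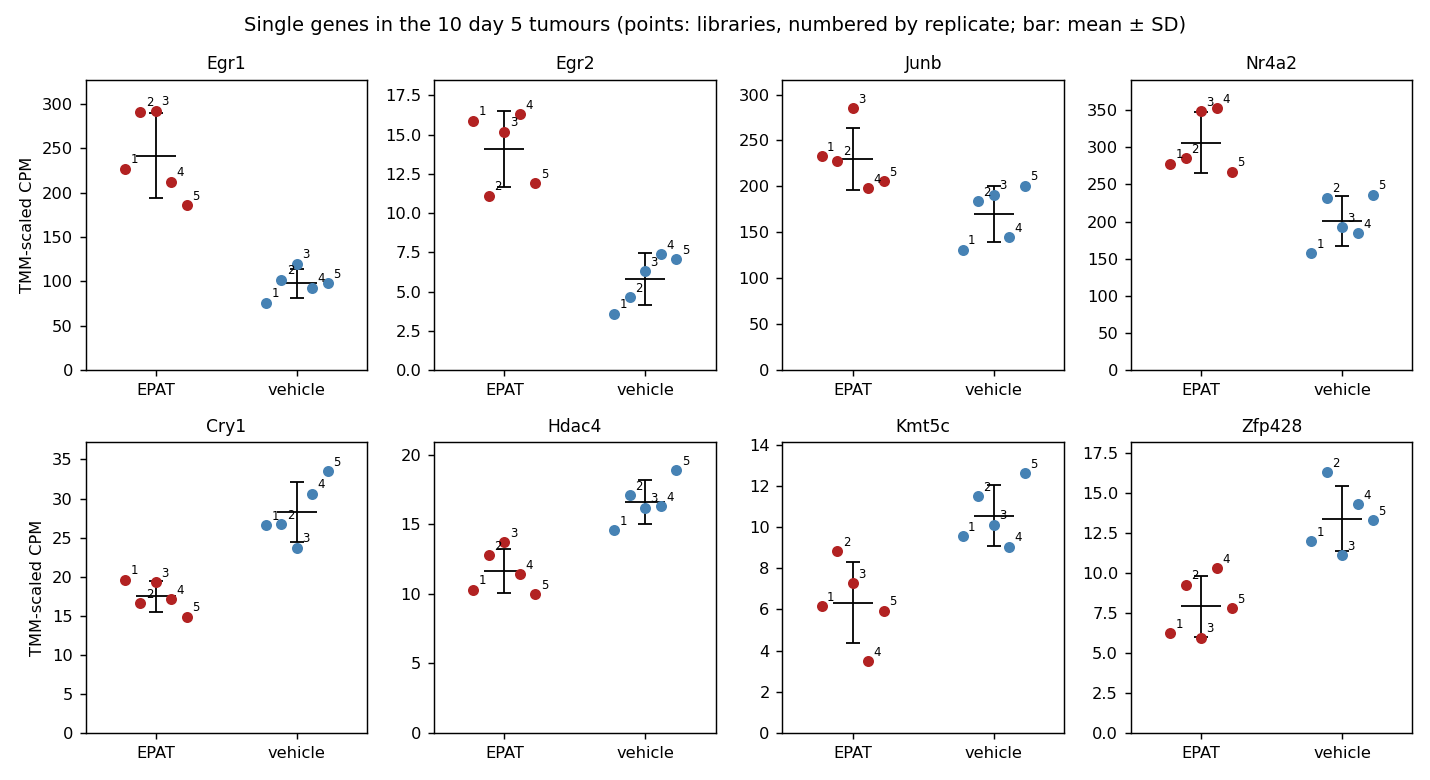
TMM-scaled CPM of 8 genes (y axes from 0) in the 5 EPAT libraries and the 5 vehicle libraries, 1 point a library, with mean and SD. Egr1, Egr2 and Nr4a2 are higher under EPAT and Cry1, Hdac4, Kmt5c and Zfp428 lower without overlap, while Junb overlaps.

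The wider immediate early group leaned toward EPAT with smaller sizes. Of 27 measured members 21 were higher and 6 lower, with a median log2 fold change of 0.26 beside -0.01 for all genes. Of these, 0 were called and 4 were higher at an unadjusted p under 0.05, where all genes gave 0.664%. In 3 members, Egr1, Egr2 and Nr4a2, all EPAT libraries lay above all vehicle libraries, beside 0.212% of all genes. Egr1 and Egr2, the genes of smallest p in this comparison, are in both counts. Apart from them the counts hold Junb and Btg2 by p and Nr4a2 by lack of overlap. The list was written with earlier results of these data known, so the counts are no separate support for it. Without EPAT replicate 3 the median was 0.14, with 16 members higher and 11 lower, and without vehicle replicate 1 it was 0.14. With the muscle and adipocyte scores of each library as covariates it was 0.13.

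Among the transcription factors of the group, Nr4a2 and Junb stood next to the EGR genes. Nr4a2, an orphan nuclear receptor gene induced by cyclic AMP, had 278, 285, 348, 352 and 267 CPM under EPAT, against 157, 232, 192, 184 and 236 CPM under vehicle. All EPAT libraries lay above all vehicle libraries, yet the log2 fold change of 0.61 ± 0.33 had an adjusted p of 1.0 by edgeR. Junb, a subunit of the AP-1 factor, had 233, 228, 285, 198 and 206 CPM under EPAT, against 131, 184, 191, 145 and 201 CPM under vehicle. EPAT replicate 4 lay just below vehicle replicate 5 and the other EPAT libraries above all vehicle libraries. The log2 fold change was 0.43 ± 0.19 (adjusted p = 1.0 by edgeR). Nr4a1, the relative of Nr4a2 that marks antigen receptor signalling in T cells, had 108, 92.9, 114, 60.3 and 58.4 CPM under EPAT, against 26.4, 60.5, 53, 24.6 and 58.5 CPM under vehicle. EPAT replicates 1 to 3 lay above every vehicle library and replicates 4 and 5 among them. Fos and Fosb, the partners of Jun proteins in AP-1, were at 33.3 ± 16.1 and 12.2 ± 3.25 CPM under EPAT, against 27.8 ± 6.87 and 10.2 ± 3.26 CPM under vehicle (SD, n = 5 each). Jun itself was at 215 ± 42.4 CPM under EPAT and 239 ± 36.9 CPM under vehicle.

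Btg2, an antiproliferative gene, had 48.2, 42.9, 41.2, 37.7 and 37.4 CPM under EPAT, against 21.3, 36.1, 38.2, 23.8 and 35.3 CPM under vehicle. Vehicle replicate 3 lay above EPAT replicates 4 and 5, and the groups did not otherwise overlap. The log2 fold change of Btg2 was 0.42 ± 0.20 (adjusted p = 1.0 by edgeR). Its promoter (chr1:134079156-134079405, minus strand) is shown because Btg2 was among the 4 members at an unadjusted p under 0.05 and holds a cyclic AMP response element, the CREB site TGACGTCA, in capitals 166 to 159 bases before the start.
Btg2: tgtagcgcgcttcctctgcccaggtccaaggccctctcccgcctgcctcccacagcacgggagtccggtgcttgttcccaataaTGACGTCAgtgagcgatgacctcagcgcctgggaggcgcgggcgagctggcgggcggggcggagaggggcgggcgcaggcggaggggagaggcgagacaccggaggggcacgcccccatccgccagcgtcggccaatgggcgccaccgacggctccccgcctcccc
That element, searched on both strands, was present in 1.55% of all promoter windows. Of the 22 immediate early genes with a window, 3 held it in at least 1 window (Btg2, Dusp1 and Maff) and 3 held a CArG box (Egr2, Srf and Zfp36). These are counts of genes, some with several windows, so they are not comparable with the shares of single windows. Dusp1, a MAP kinase phosphatase, was at 130 ± 40.8 CPM under EPAT and 101 ± 53.4 CPM under vehicle, and Maff, a small Maf factor, at 31.8 ± 9.83 and 37.1 ± 8.21 CPM (SD, n = 5 each).

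Genes known to answer to cyclic AMP were more often above than below vehicle. Of 22 measured members 17 were higher and 5 lower under EPAT, with a median log2 fold change of 0.27 that ranged from 0.20 to 0.36 when libraries were left out. None was called and 1, Junb, was higher at an unadjusted p under 0.05 (0 to 4 with libraries left out). The list shares members with the immediate early list. In comparisons of other libraries the same 22 genes had medians of the opposite sign. For the combination of EPAT and anti-PD-1 over anti-PD-1 alone on day 5 the median was -0.31, with 6 of 22 higher, of which 1 was at an unadjusted p under 0.05 (1.45% of all genes), and 6 lower at that p (4.86% of all genes), and for EPAT over vehicle on day 2 it was -0.13, with 7 of 22 higher. Rgs2, a regulator that shortens G protein signals, had 221, 219, 206, 228 and 240 CPM under EPAT, against 125, 168, 225, 162 and 162 CPM under vehicle. Vehicle replicate 3 lay inside the EPAT values and the other 4 vehicle libraries below them. Pde4b and Pde4d, phosphodiesterases that break down cyclic AMP, had log2 fold changes of 0.28 ± 0.28 and -0.17 ± 0.22, and Crem, a CREB family gene, one of 0.03 ± 0.21. The MAP kinase feedback genes, which report the output of mutant Braf, stood at 9 higher and 7 lower of 16 with a median of 0.03, and at 4 higher and 12 lower with a median of -0.11 without EPAT replicate 3. Of these, Dusp6 was at 349 ± 38 CPM under EPAT and 277 ± 23.4 CPM under vehicle, while Etv5 was at 61.6 ± 6.61 and 76.9 ± 9.67 CPM (SD, n = 5 each), and neither was at an unadjusted p under 0.05.

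**Figure D3:**
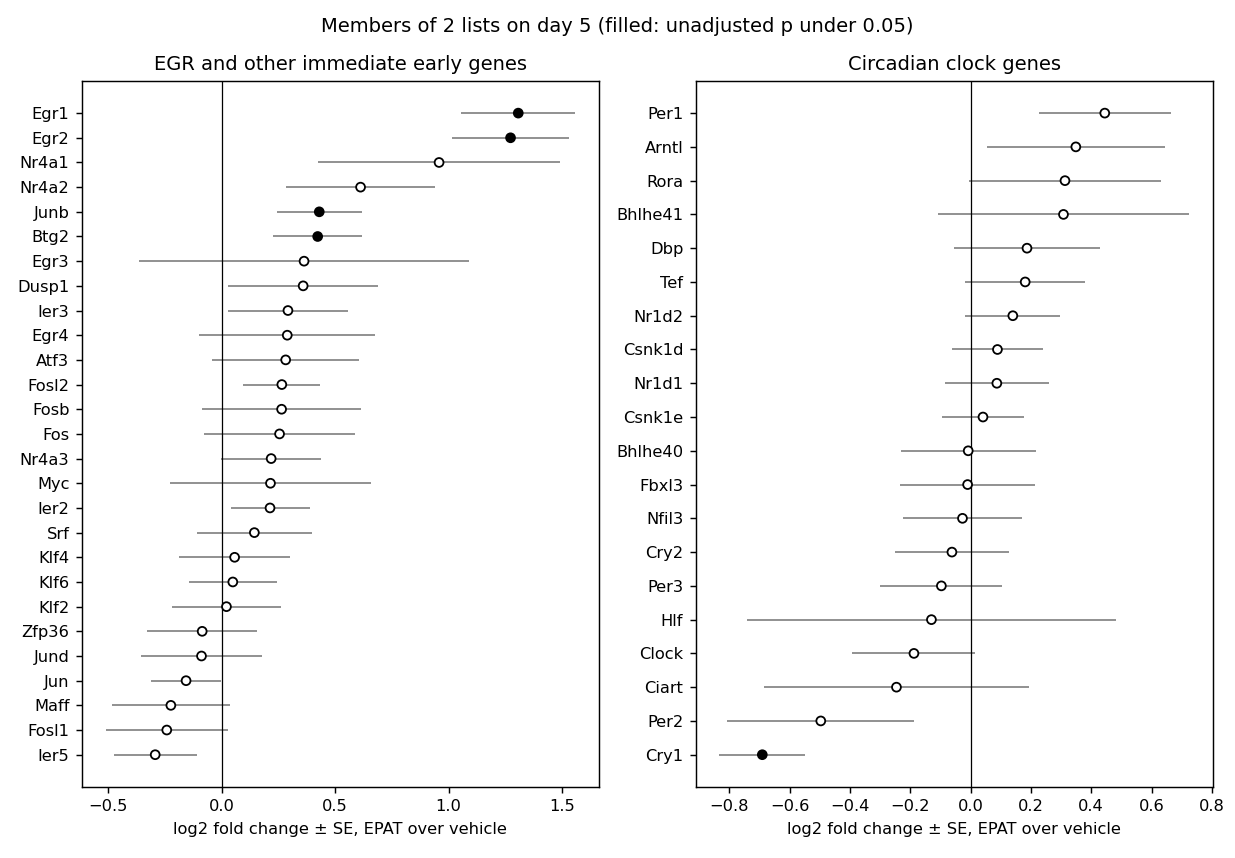
Log2 fold changes of EPAT over vehicle (x axis) with SE for the measured immediate early genes and clock genes, filled where the unadjusted edgeR p was under 0.05. Egr1 and Egr2 lie apart from the rest of the first list at 1.31 and 1.27, and Cry1 lies lowest in the second at -0.69.

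The receptors and enzymes of the pathway itself overlapped between the groups. Ptger4, the EP4 gene, had 30.7, 17.9, 13.1, 19.7 and 29.2 CPM under EPAT, against 11.6, 18.3, 31.8, 17.7 and 15.8 CPM under vehicle, with vehicle replicate 3 highest of all. Its log2 fold change was 0.22 ± 0.31. Ptger2, the EP2 gene, was scarce in whole tumours, with 64 reads over the EPAT libraries and 80 over the vehicle libraries, or 1.04 ± 0.562 CPM and 1.25 ± 0.716 CPM (SD, n = 5 each). Ptger1 and Ptger3, which encode EP1 and EP3, were at 3.23 ± 0.597 and 0.602 ± 0.237 CPM under EPAT, and at 3.85 ± 1.02 and 0.584 ± 0.399 CPM under vehicle. Of 10 genes of synthesis and breakdown 6 were higher and 4 lower, none at an unadjusted p under 0.05. Ptgs2, the inducible cyclooxygenase gene, had 60.4, 74.9, 320, 89 and 87.8 CPM under EPAT, against 88.9, 144, 91.3, 92.3 and 55.1 CPM under vehicle. The one high library was EPAT replicate 3, and the other 4 EPAT libraries lay within the vehicle range. Ptgs1 was at 295 ± 46.8 CPM under EPAT and 250 ± 28.9 CPM under vehicle, and Ptges, a prostaglandin E synthase gene, was at 109 ± 14.4 and 109 ± 24.5 CPM (SD, n = 5 each).

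Cry1 encodes a cryptochrome that represses the CLOCK-BMAL1 activator in the circadian feedback loop, and cryptochromes are also known for limiting cyclic AMP signalling. It had 19.6, 16.6, 19.3, 17.1 and 14.9 CPM under EPAT, against 26.6, 26.7, 23.7, 30.6 and 33.5 CPM under vehicle. The highest EPAT library lay below the lowest vehicle library, and the log2 fold change was -0.69 ± 0.14 with an adjusted p of 0.118 by edgeR. It was -0.74 without EPAT replicate 1 and ranged from -0.75 to -0.62 over all libraries left out in turn. CLOCK-BMAL1 binds the E-box CACGTG, and the Cry1 promoter (chr10:85185055-85185304, minus strand) is shown with its E-box in capitals 60 to 55 bases before the start.
Cry1: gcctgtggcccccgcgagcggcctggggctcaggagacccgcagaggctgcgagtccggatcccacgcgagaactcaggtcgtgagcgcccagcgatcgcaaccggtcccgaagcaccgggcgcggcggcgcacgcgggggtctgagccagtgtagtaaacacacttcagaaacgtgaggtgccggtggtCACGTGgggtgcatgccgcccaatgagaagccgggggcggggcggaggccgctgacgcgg
An E-box of these letters was present in 6.02% of all promoter windows. Of 16 clock genes with a window 5 held it in at least 1 window, Bhlhe41, Ciart, Cry1, Per1 and Tef. This again counts genes and is not comparable with the share of single windows.

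The clock genes as a list had no shared direction. Of 20 measured clock genes 10 were higher and 10 lower, with a median of 0.02 (14 higher and 6 lower without vehicle replicate 5), and Cry1 was the one at an unadjusted p under 0.05. Its relative Cry2 was at 12.6 ± 1.99 CPM under EPAT and 13.1 ± 3.04 CPM under vehicle. Per1, a repressor gene that also answers to cyclic AMP, had 57.1, 42.4, 40.7, 30.1 and 32.2 CPM under EPAT, against 25.4, 30.6, 21.6, 20 and 50.8 CPM under vehicle. Vehicle replicate 5 lay above 4 EPAT libraries, and EPAT replicate 4 lay below vehicle replicate 2. Per2 had a log2 fold change of -0.50 ± 0.31, with vehicle replicate 5 at 34.6 CPM and the other vehicle libraries at 16.9 to 20.7 CPM. Dbp and Nr1d1, outputs of the loop, were at 22.8 ± 2.23 and 21.8 ± 2.01 CPM under EPAT, against 20 ± 7.0 and 20.5 ± 3.34 CPM under vehicle (SD, n = 5 each). The labels give no hour of collection.

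Hdac4 followed Cry1 among the lower genes. It encodes a class IIa histone deacetylase whose entry into the nucleus is controlled by phosphorylation. Hdac4 (chromosome 1, 91928779 to 92195699, minus strand) had 10.3, 12.8, 13.7, 11.4 and 9.98 CPM under EPAT, against 14.6, 17.1, 16.2, 16.3 and 18.9 CPM under vehicle. The groups did not overlap, and the log2 fold change was -0.52 ± 0.14 (adjusted p = 1.0 by edgeR). The other class IIa genes had positive fold changes, 0.71 ± 0.38 for Hdac9, 0.35 ± 0.22 for Hdac7 and 0.14 ± 0.13 for Hdac5. Over 11 histone deacetylase genes 6 were higher and 5 lower. Kmt5c, which encodes a methyltransferase of histone H4, had 6.16, 8.81, 7.26, 3.47 and 5.93 CPM under EPAT, against 9.54, 11.5, 10.1, 9.03 and 12.6 CPM under vehicle. Zfp428, a zinc finger gene, had 6.25, 9.26, 5.94, 10.3 and 7.8 CPM under EPAT, against 12, 16.3, 11.1, 14.3 and 13.3 CPM under vehicle. In both genes every EPAT library lay below every vehicle library, with log2 fold changes of -0.74 ± 0.22 for Kmt5c and -0.76 ± 0.22 for Zfp428 (adjusted p = 1.0 each by edgeR).

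The other lower genes of smallest p were mixed in role. Ccr1, a receptor of inflammatory chemokines on myeloid cells, had 18, 13.9, 12.9, 12 and 11.9 CPM under EPAT, against 31.5, 13.3, 32.1, 28.1 and 14.6 CPM under vehicle. Vehicle replicates 1, 3 and 4 lay well above the rest. Rhbdf2, which directs the shedding protease ADAM17 to the cell surface, was at 11.3 ± 1.49 CPM under EPAT and 15.4 ± 1.85 CPM under vehicle without overlap. Inpp5j, an inositol phosphatase gene, had a log2 fold change of -1.75 ± 0.52 at 0.903 ± 0.399 CPM under EPAT and 3.13 ± 1.67 CPM under vehicle. Grk6, which desensitises G protein-coupled receptors, was at 49.9 ± 8.99 CPM under EPAT and 67.8 ± 12.1 CPM under vehicle (SD, n = 5 each). Oaz1 of polyamine control, the splicing genes Cherp and Dhx15, and Utp23 of ribosome assembly had log2 fold changes of -0.51, -0.40, -0.37 and -0.42. Of the remaining genes without overlap, Tnfsf8, the CD30 ligand gene, had 1.31, 1.53, 1.32, 1.67 and 1.95 CPM under EPAT, against 3.26, 2.52, 3.64, 3.49 and 3.01 CPM under vehicle. Tnfaip2, a target of TNF, had 467, 384, 449, 408 and 437 CPM under EPAT, against 507, 562, 568, 480 and 634 CPM under vehicle. Pgs1, a cardiolipin pathway enzyme gene, was at 66.4 ± 2.42 CPM under EPAT and 83.2 ± 8.44 CPM under vehicle, and Gdpd2, a phosphodiesterase gene, at 2.36 ± 0.697 and 4.37 ± 1.18 CPM.

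Among the higher genes St3gal5, the gene of GM3 ganglioside synthase, had 70.2, 57.6, 43.3, 82.5 and 62.7 CPM under EPAT, against 38.2, 35.3, 37.4, 38.3 and 39.4 CPM under vehicle. The vehicle libraries lay close together and every EPAT library above them, and the log2 fold change was 0.75 ± 0.25 (adjusted p = 1.0 by edgeR). Ccdc28a was at 10.2 ± 1 CPM under EPAT and 6.83 ± 1.16 CPM under vehicle, also without overlap. Cirbp, the cold-inducible RNA-binding protein gene, was at 38.5 ± 5.54 CPM under EPAT and 29.4 ± 4.46 CPM under vehicle (SD, n = 5 each). Ulk3, a kinase gene, Dcaf4, a ubiquitin ligase adaptor gene, and Fbxo34, an F-box gene, had log2 fold changes of 0.62, 0.48 and 0.31. Ptchd1, higher without overlap, was at 20 ± 3.87 CPM under EPAT and 11.6 ± 2.54 CPM under vehicle (SD, n = 5 each).

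For 3 of the higher genes, and for Cherp among the lower genes above, reads may belong to a neighbour. The strand setting of the counting is not given in the sources used here, and genes that overlap cannot then be told apart with certainty. Churc1 (log2 fold change 0.64 ± 0.21) shares 17592 bases with Fntb on the same strand. Uros of heme synthesis (0.65 ± 0.24) overlaps Bccip by 740 bases on the opposite strand. The mitochondrial isoleucine tRNA gene mt-Ti (1.83 ± 0.56) had 51, 22, 21, 104 and 47 reads under EPAT, against 15, 11, 16, 11 and 15 reads under vehicle, and it overlaps the abundant mt-Nd1 by 2 bases. The EPAT reads ranged widely while the vehicle reads lay close together. Cherp overlaps 1700030K09Rik, which had 727 reads in the 10 libraries, by 513 bases on the opposite strand.

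T cell genes all had positive fold changes, but the libraries of the groups overlapped. Of 21 measured members 21 were higher under EPAT, with a median log2 fold change of 0.34, and 0 were at an unadjusted p under 0.05. The T cell score, the mean log2 CPM of the members, was 4.16, 3.31, 2.40, 3.22 and 3.62 under EPAT, against 2.65, 2.90, 3.74, 2.87 and 2.76 under vehicle. EPAT replicate 1 was highest and EPAT replicate 3 lowest of the 10, and vehicle replicate 3 stood above the other vehicle libraries. The median was 0.10, with 17 of 21 higher, without EPAT replicate 1, and 0.64 without vehicle replicate 3. With the muscle and adipocyte scores of each library as covariates it was 0.845. In whole tumours more cells of a type and more RNA per cell cannot be told apart. Cd8a, the coreceptor of cytotoxic T cells, had 44.8, 30.2, 12.7, 27.6 and 32 CPM under EPAT, against 10.3, 17.1, 32.8, 19.8 and 13.3 CPM under vehicle. EPAT replicate 3 lay among the vehicle values and vehicle replicate 3 among the EPAT values, and the log2 fold change was 0.66 ± 0.59. Cd6, a T cell surface receptor, had the largest value of the list, 1.22 ± 0.62, and Cd4 had 0.13 ± 0.54. Pdcd1, the PD-1 gene, was at 11.5 ± 3.96 CPM under EPAT and 6.76 ± 1.78 CPM under vehicle, a log2 fold change of 0.77 ± 0.50. Cd274, the gene of its ligand, was at 49.7 ± 13.3 CPM under EPAT and 46.6 ± 35.8 CPM under vehicle (SD, n = 5 each).

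**Figure D4:**
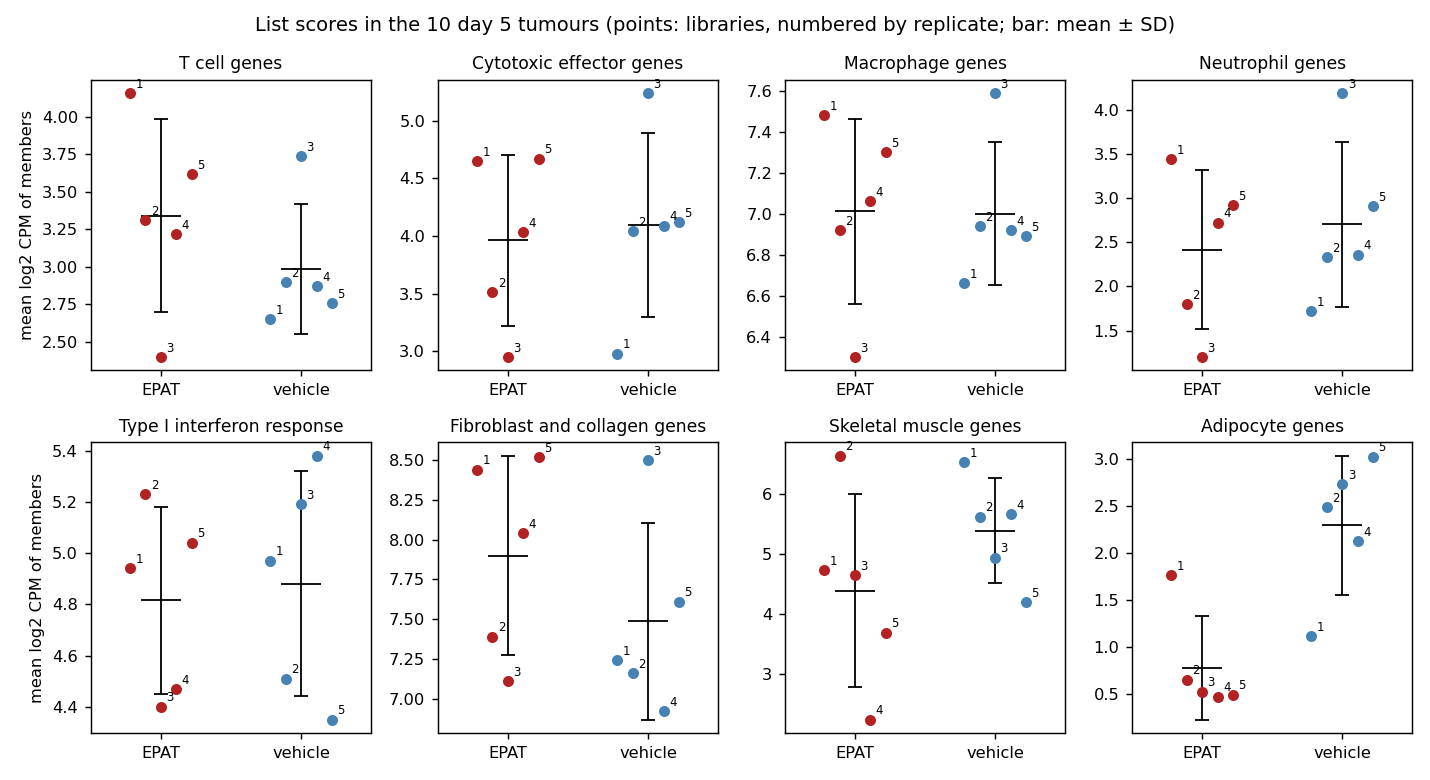
Mean log2 CPM of the measured members of 8 gene lists (y axes) in the 5 EPAT libraries and the 5 vehicle libraries, 1 point a library. EPAT replicate 3 is lowest for macrophage genes at 6.3 and vehicle replicate 3 highest at 7.59, and adipocyte scores lie at 0.47 to 1.76 under EPAT and 1.11 to 3.02 under vehicle.

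The direction of the effector and innate lists changed with single libraries. Cytotoxic genes stood at 7 higher and 8 lower of 15, median -0.15, at 11 and 4 with a median of 0.30 without vehicle replicate 3, and at 4 and 11 with a median of -0.25 without EPAT replicate 1. Gzmb, the gene of granzyme B, had 45, 20.2, 21, 17.7 and 29.5 CPM under EPAT, against 11, 24, 39.6, 23.6 and 25.8 CPM under vehicle, which overlapped throughout. Gzmc, another granzyme gene, was at 42.4 ± 22.3 CPM under EPAT and 81.6 ± 43.8 CPM under vehicle. Ifng was at 5.42 ± 2.21 CPM under EPAT and 6.11 ± 4.36 CPM under vehicle (SD, n = 5 each). Genes of CXCR3 ligands and type 1 chemokines, with the receptor gene Cxcr3 among them, were all 10 higher with a median of 0.13. The median was 0.05 with 7 higher without EPAT replicate 1, and 0.02 with 6 higher without vehicle replicate 1. Cxcl10, a CXCR3 ligand induced by interferon, had 131, 132, 43.7, 85.3 and 104 CPM under EPAT, against 49.5, 36.6, 99.3, 83 and 56.9 CPM under vehicle, and Cxcl9 had a log2 fold change of 0.12 ± 0.44. Natural killer cell genes stood at 7 higher and 5 lower, dendritic cell genes at 7 and 6, macrophage genes at 9 and 8, and regulatory T cell genes at 4 and 5. Without vehicle replicate 3 these lists stood at 9 and 3, 11 and 2, 13 and 4, and 8 and 1, in the same order. Without EPAT replicate 1 they stood at 4 and 8, 4 and 9, 3 and 14, and 2 and 7. Most members were thus higher under EPAT without that vehicle library and lower without that EPAT library. Inflammatory monocyte genes were 2 higher and 10 lower, median -0.13, and without vehicle replicate 3 they were 7 higher and 5 lower with a median of 0.02. Neutrophil genes were 1 higher and 12 lower, median -0.47, and without vehicle replicate 3, whose neutrophil score of 4.19 was the highest of the 10, they were 7 higher and 6 lower with a median of 0.09. Without EPAT replicate 1 monocyte genes were 1 higher and 11 lower, median -0.22, and neutrophil genes 1 and 12, median -0.70. With the muscle and adipocyte scores as covariates the medians were 0.17 for monocyte genes and 0.047 for neutrophil genes. With all 10 libraries none of these lists had a member at an unadjusted p under 0.05.

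The interferon response, a set of antiviral and antigen presentation genes, lay level between the groups on day 5. Type I interferon genes were 8 higher and 16 lower of 24, median -0.07, and 0 were at an unadjusted p under 0.05. The median was -0.22 without vehicle replicate 5 and 0.12, with 15 higher, without vehicle replicate 4. In the libraries of day 2, which share none with day 5, the same 24 genes had a median of 0.86 for EPAT over vehicle, 24 were higher, 14 of them at an unadjusted p under 0.05 (3.34% of all genes were higher at that p on that day, and 6.23% were at that p in either direction), and 0 were called (0.0%). Genes of other cell types also had large fitted differences in those libraries. Skeletal muscle genes had a median of 3.05 on day 2, with 15 of 15 higher and 11 at an unadjusted p under 0.05. Their score lay at -0.63 to 7.2 under EPAT and -0.75 to 4.07 under vehicle. B and plasma cell genes had a median of -3.01, with 7 of 8 lower at that p (2.89% of all genes), and scores of -0.22 to 0.5 under EPAT and -0.31 to 5.33 under vehicle. Their median scores were level, at 0.19 under EPAT and 0.13 under vehicle. Keratinocyte genes had a median of -1.80, with 6 of 9 lower at that p, and scores of -0.54 to 0.13 under EPAT and -0.29 to 3.6 under vehicle. The part of these cell types in the day 2 values was not tested. Isg15, a ubiquitin-like interferon product, had log2 fold changes of 0.07 on day 5 and 0.97 on day 2, and Ifit1, an RNA-binding antiviral protein gene, 0.004 and 0.83. Interferon-gamma genes had medians of -0.004 on day 5 and 0.75 on day 2, class I presentation genes -0.04 and 0.54, and class II presentation genes -0.13 and 0.70. Without vehicle replicate 3 the day 5 medians of these 3 lists were 0.17, 0.10 and 0.21. Without EPAT replicate 1 they were -0.035, -0.08 and -0.26. The difference between the days was tested gene by gene: 0 of 15070 were called by edgeR (0.0%), and 786 (5.22%) were at an unadjusted p under 0.05, 7 of the 24 type I genes among them, all smaller on day 5 (2.84% of all genes were smaller and 2.38% larger at that p). Leaving out the 3 libraries of the series whose first title number differs from that of their group gave medians of -0.11 on day 5 and 1.01 on day 2.

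Stromal and tumour cell genes overlapped between the groups. Fibroblast and collagen genes were all 15 higher under EPAT, median 0.31, with 0 at an unadjusted p under 0.05. Their score was 8.44, 7.39, 7.11, 8.04 and 8.52 under EPAT, against 7.24, 7.16, 8.50, 6.92 and 7.61 under vehicle. EPAT replicates 2 and 3 lay among the vehicle values and vehicle replicate 3 among the highest EPAT values. Without vehicle replicate 3 the median was 0.67 with 4 members higher at an unadjusted p under 0.05, where 2.15% of all genes were higher. Without EPAT replicate 5 the median was 0.18 with none at that p. With the muscle and adipocyte scores as covariates the median was 0.78. For the combination over anti-PD-1 on day 5 it was -0.25, with 3 of 15 higher. Col1a1, a collagen gene, was at 3260 ± 1610 CPM under EPAT and 2260 ± 1380 CPM under vehicle (SD, n = 5 each). Cell cycle genes were 5 higher and 17 lower of 22, median -0.16 (-0.08 without EPAT replicate 1), and Pcna, the clamp of DNA replication, was at 73.6 ± 15.3 CPM under EPAT and 84.5 ± 15.3 CPM under vehicle. Heat shock genes were 3 higher and 10 lower of 13, with Hsph1 at -0.39 ± 0.18 and Hspa8 at -0.28 ± 0.13 on the log2 scale, both chaperone genes at an unadjusted p under 0.05 (1.04% of all genes were lower at that p). The list held 0 members at that p without EPAT replicate 1, without EPAT replicate 5 and without vehicle replicate 2. Mitochondrially encoded genes were 8 higher and 2 lower of 10, median 0.19. Of these mt-Nd2, a complex I subunit, had 6580, 7220, 5580, 5780 and 7150 CPM under EPAT, against 6340, 3990, 5690, 6220 and 1760 CPM under vehicle, with vehicle replicates 2 and 5 low.

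Fat cell genes had the largest median difference of the 40 lists. Of 12 measured members 10 were lower under EPAT, with a median log2 fold change of -2.86, 6 of them at an unadjusted p under 0.05 (1.04% of all genes were lower at that p), and 0 called. In 4 (Adipoq, Lep, Plin1 and Pck1) the groups did not overlap, beside 0.259% of all genes. For Lep the TMM scaling alone parted the groups, since EPAT replicate 1 and vehicle replicate 1 had 2 reads each, at 0.164 and 0.167 CPM. Adipoq, the gene of the fat cell hormone adiponectin, had 24, 14, 5, 13 and 7 reads under EPAT, against 37, 154, 177, 108 and 320 reads under vehicle. All EPAT libraries were low and the vehicle libraries spread widely, and the log2 fold change was -3.51 ± 1.28 (adjusted p = 1.0 by edgeR). Cfd, the fat cell serine protease adipsin, had 282 reads over the EPAT libraries and 3408 over the vehicle libraries, and Lep, the leptin gene, had 2 and 41. Lpl, a lipase that macrophages also express, had the opposite sign at 111 ± 66 CPM under EPAT and 56.2 ± 43.5 CPM under vehicle (SD, n = 5 each). The list median was -2.39 to -3.47 over the libraries left out in turn, and on day 2, in other libraries, it was -2.13. The groups overlapped on day 2, where adipocyte scores of 1.06 to 3.49 under EPAT lay inside those of -0.07 to 5.94 under vehicle. Skeletal muscle genes were 1 higher and 14 lower of 15, with a median of -0.59 that was -1.53 without EPAT replicate 2 and -0.26 without vehicle replicate 1. The muscle score was 4.73, 6.63, 4.65, 2.25 and 3.69 under EPAT, against 6.52, 5.62, 4.94, 5.66 and 4.20 under vehicle. With both scores of each library as covariates the log2 fold changes were 0.99 for Egr1, 1.15 for Egr2 and -0.68 for Cry1, each with an adjusted p of 0.331 by edgeR.

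The 24 genes of smallest p were then followed in 2 comparisons that share no library with this one: combination of EPAT and anti-PD-1 against anti-PD-1 alone on day 5, and EPAT against vehicle on day 2. Of the 12 higher genes 9 were higher and of the 12 lower genes 9 were lower with the combination on day 5, with medians of 0.16 and -0.09. Among all 15070 genes 6936 were higher there, with a median of -0.03. On day 2, 3 of the 12 higher genes were higher, median -0.17, and 0 of the 12 lower genes were lower, median 0.16. Among all genes 7065 were higher on day 2, with a median of -0.02. None of the 24 was called in either comparison, where edgeR called 3 genes (0.0199%) for the combination and 0 (0.0%) on day 2. Egr1 had log2 fold changes of 0.35 ± 0.25 with the combination and -0.46 ± 0.25 on day 2. Egr2 had 0.10 ± 0.25 and -0.44 ± 0.26, and Cry1 had -0.21 ± 0.14 and 0.23 ± 0.14. The immediate early list had a median of -0.15 with the combination, 10 of 27 higher, and -0.08 on day 2, 11 of 27 higher. Nr4a1, at 0.96 in the main comparison, had -1.30 with the combination and -0.73 on day 2.

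**Figure D5:**
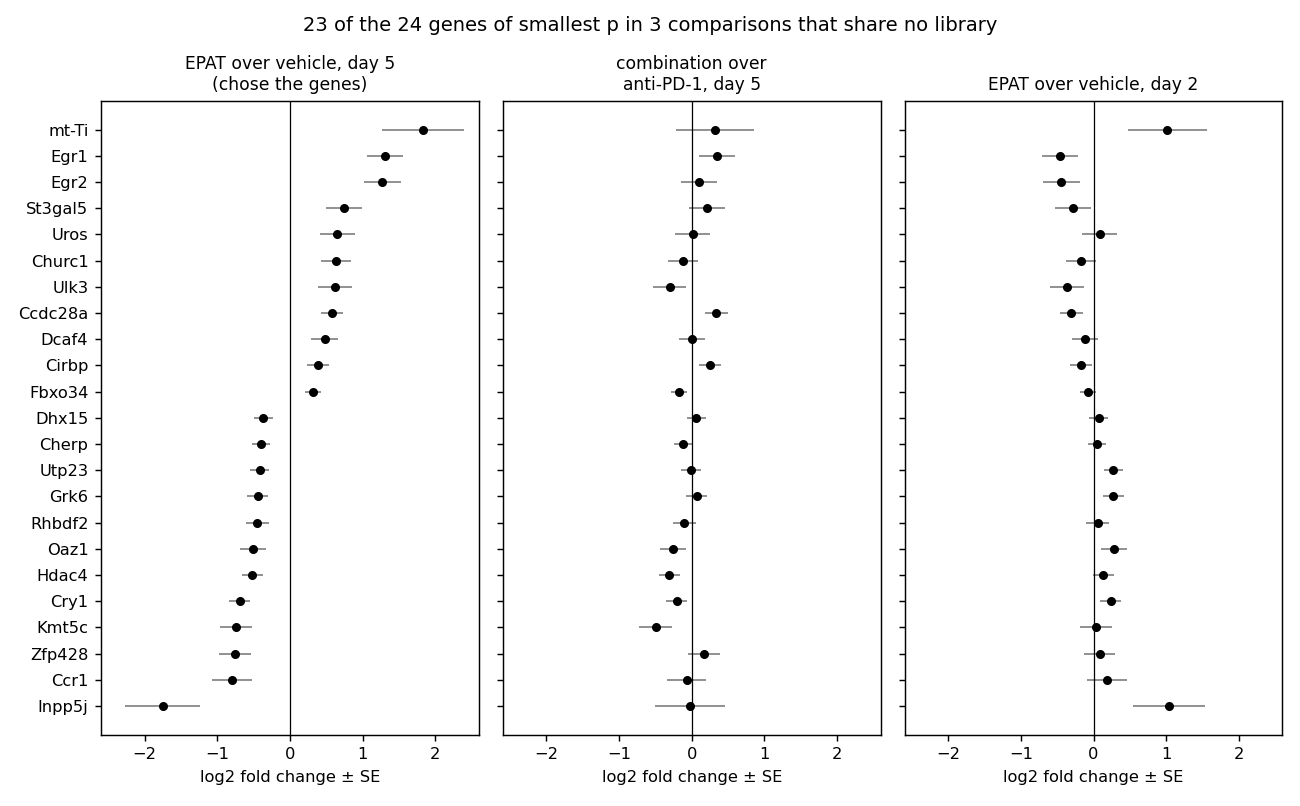
Log2 fold changes (x axes, with SE) of 23 of the 24 genes of smallest p in EPAT over vehicle on day 5, in combination over anti-PD-1 on day 5 and in EPAT over vehicle on day 2, which share no library. Egr1 stands at 1.31, 0.35 and -0.46 and Cry1 at -0.69, -0.21 and 0.23, with the sign on day 2 opposite to that on day 5 in both genes.

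The difference between days and the difference with the antibody were tested in the same fit and share the libraries above. Both contain the EPAT difference on day 5 by which Egr1, Egr2 and Cry1 were chosen. That choice itself favours values of large size for these genes here. The immediate early list, which holds Egr1 and Egr2, leaned toward EPAT in that same difference. The EPAT effect on day 5 minus that on day 2 was 1.77 for Egr1 (adjusted p = 0.22 by edgeR), 1.72 for Egr2 (adjusted p = 0.242 by edgeR) and -0.93 for Cry1 (adjusted p = 0.242 by edgeR). The EPAT effect with the antibody minus that without it was -0.96 for Egr1 and -1.17 for Egr2 (adjusted p = 1.0 each by edgeR). No gene was called for the interaction (0.0%), and 467 (3.1%) were at an unadjusted p under 0.05. Of the 27 immediate early genes 8 were among them, all smaller with the antibody (1.88% of all genes).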

How the data were processed

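Libraries were made with the Lexogen QuantSeq 3′ forward kit from whole tumours, per the labels' protocols. The authors deposited whole-number read counts for 39179 genes in 39 libraries and a log2 table of 16095 genes; per the submitters' processing notes the tools were bcl2fastq, STAR, featureCounts and limma with mm10 and GRCm38, and no source used here states their versions, the annotation release or the strand setting. Each deposited log2 value equals the log2 of the count plus 0.5 minus a constant per library (largest deviation 5e-09), so the counts were analysed and the log2 table served as an alternative. Symbols came from GENCODE M21 (GRCm38) for 37607 identifiers, and promoter windows from RefSeq (GRCm38.p6).

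Counts were tested with edgeR 4.0.16 (R 4.3.3): TMM scaling, filterByExpr with a minimum count of 10, robust quasi-likelihood fit with 1 mean for each of 8 groups over all 39 libraries (31 residual degrees of freedom, 15070 genes), 2-sided, Benjamini-Hochberg adjustment over all genes tested, called at an adjusted p under 0.05. The code was tested on simulated counts. Alternatives used DESeq2 1.42.0 and limma 3.58.1, other scalings, filters, libraries and covariates, and figures matplotlib 3.10.9. Named genes were the 12 in each direction of smallest p (mean log2 CPM 1 or above, clone and predicted names left out), up to 4 of smallest p from each list, a set of genes of the pathway and the immune response, and up to 6 in each direction among genes without overlap; some that meet these rules are not reported here. Other list members given with values (such as Fos, Cry2, Isg15 and Lpl) were named after their values were seen. Members and lists were chosen with earlier results of these data known. List scores are means of log2 CPM and were not tested. The last numbers in the titles do not pair the libraries: deviations of libraries with the same number correlated at -0.03, 0.25, 0.19, 0.02 and -0.31.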

Additional observations from a re-analysis of the deposited data

Results flagged for a closer look

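In groups of 5 libraries a value was picked out where its gap to the nearest other library took most of the group's range (Dixon's criterion at 95%). Chance picks about 1 in 20 groups; here it was 16 of 370 gene groups and 5 of 80 list groups.

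Under EPAT, replicate 3 was apart in 4 genes. Ptgs2 was at 320 CPM (60.4 to 89 in the other EPAT libraries), Tgfb1, a suppressive cytokine gene, at 22.8 CPM (33.5 to 39.1), Ncr1, a natural killer cell receptor gene, at 0.528 CPM (1.8 to 2.44) and Sbsn at 3.7 CPM (7.28 to 9.04). Its B and plasma cell score was -0.15 (0.49 to 0.72). EPAT replicate 1 was apart in Trbc1, a T cell receptor gene, at 10.5 CPM (2.7 to 3.87), in Flt3, a receptor of dendritic cell precursors, at 4.93 CPM (1.4 to 1.89), in Lep at 0.164 CPM (0 in the others) and in the adipocyte score at 1.76 (0.47 to 0.65). Cirbp was at 48.2 CPM in EPAT replicate 5 (34.8 to 37.7), and Ager at 1.26 CPM in EPAT replicate 2 (2.38 to 2.57).

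Under vehicle, replicate 3 was apart in Cd2, a T cell adhesion gene, at 22.2 CPM (9.5 to 10.4 in the other vehicle libraries), in Cd86, a costimulatory ligand gene, at 21.6 CPM (11.7 to 13.7), in Tapbp of peptide loading at 504 CPM (283 to 316) and in Col1a2, a collagen gene, at 8260 CPM (1830 to 2550). Its scores were 3.74 for T cell genes (2.65 to 2.9), 3.7 for dendritic cell genes (2.5 to 2.83) and 5.63 for NF-kappaB and TNF genes (5.02 to 5.16). Per2 was at 34.6 CPM in vehicle replicate 5 (16.9 to 20.7), and Tgtp1, an interferon-induced GTPase gene, at 1.83 CPM in the same library (9.01 to 14.2). Ednrb was at 21.4 CPM in vehicle replicate 1 (16.5 to 17.3).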

How the results depend on the processing

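For EPAT against vehicle on day 5 the count of called genes was 0 under 21 of 24 other settings, including each library left out, and it was 1 with only the 10 libraries compared, 3 with DESeq2 and 3 with limma-voom with quality weights. The count at an unadjusted p under 0.05 was 146 with only the 20 libraries of day 5, 852 with no filter on low counts, 964 with the muscle and adipocyte scores as covariates, 394 with DESeq2 (38 adjusted p not given) and 1327 with limma-voom, and 180 to 600 with libraries left out in turn. The highest of these, without vehicle replicate 3, held 324 higher and 276 lower genes, and without EPAT replicate 3 there were 464; the cause was not tested. With a replicate block by the last title number edgeR called 0 genes (smallest adjusted p 0.104), and 230 were at an unadjusted p under 0.05. Adjusted p by edgeR over libraries left out ranged from 0.109 to 0.639 for Egr1, 0.166 to 0.734 for Egr2 and 0.111 to 0.881 for Cry1. The 24 genes of smallest p that could be fitted kept their sign under each of these settings. They were chosen by p in the same libraries, which favours a kept sign, so this is no separate support for them. Among all 185 named genes 36 changed sign under at least 1 setting, none past the threshold. Medians of the macrophage, checkpoint and interferon-gamma lists, all near 0, changed sign with the scaling. Called genes in the other comparisons were 1 with DESeq2 for EPAT on day 2 (0 with libraries left out), 0 with no filter, 18 with DESeq2 and 0 to 6 with libraries left out for the combination against anti-PD-1, 4 with DESeq2 and 0 to 1 for the difference between days, and 0 to 1 for the interaction (1 without vehicle day 5 replicate 5). Leaving out the 3 libraries whose first title number differs from that of their group, a choice made after seeing the data, gave 0 called genes in each comparison, the combination included. Depth limits genes such as Ptger2, with 64 reads over the EPAT libraries and 80 over the vehicle libraries.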

Other observations

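Lists not described above had few members at an unadjusted p under 0.05. Hypoxia and glycolysis genes were 12 higher and 6 lower of 18 under EPAT, median 0.06 (9 and 9 without vehicle replicate 1), with Car9, a hypoxia-induced carbonic anhydrase gene, at 3.24 ± 1.06 CPM under EPAT and 1.76 ± 0.542 CPM under vehicle (SD, n = 5 each). Glucocorticoid-induced genes were 7 higher and 7 lower of 14; Fkbp5, a chaperone of the receptor, was at 41.6 ± 10.6 CPM under EPAT and 57 ± 12.9 CPM under vehicle, a log2 fold change of -0.46 ± 0.20. Endothelial genes were 4 higher and 9 lower of 13, median -0.04, at 10 and 3 with a median of 0.15 without vehicle replicate 3, and at 1 and 12 without EPAT replicate 1. Of these Egfl7, secreted by vessels, was at 23.6 ± 2.98 CPM under EPAT and 34.5 ± 10.8 CPM under vehicle, and no member was lower at an unadjusted p under 0.05 without vehicle replicate 3. Mast cell genes were 1 higher and 8 lower of 9, median -0.30, and the median was 0.20 without vehicle replicate 3. Genes of tumour-promoting inflammation were 7 higher and 12 lower of 19, median -0.20, and 15 higher and 4 lower with a median of 0.34 without vehicle replicate 3. The list holds Il6, an inflammatory cytokine gene, at 5.67, 4.05, 17.8, 3.6 and 6.78 CPM under EPAT, against 1.84, 5.72, 6.89, 3.08 and 1.95 CPM under vehicle. Genes of the dedifferentiated melanoma state were 5 higher and 7 lower of 12, median -0.05. Among keratinocyte genes Trp63, a regulator of skin epithelium, had 7 reads over the EPAT libraries and 91 over the vehicle libraries, of which vehicle replicate 5 held 70.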
